A study of Lotus japonicus with 14 samples.

Results

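The gene models described here are the 80 of 38476 (0.208%) that reached at least 1000 CPM in an uninoculated root of Lotus japonicus, a model legume. CPM is the read count of a gene model per 1000000 counts of its library, here after TMM scaling, which sets the libraries to a common level by the bulk of their gene models. A gene model entered the set if either root reached the limit; 72 did so in wild type, 64 in apn1 and 56 in both. The root values therefore chose the set, and every comparison of these gene models with the root is a description without a test. The roots fix the starting level as high, so some fall from root to nodule is built into the choice. Just inside the limit, chr5.CM0852.260.r2.d had 1001 CPM in wild type roots and 946 CPM in apn1 roots. Just outside it, chr2.CM0021.1500.r2.a had 886 and 998 CPM.

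RNA was sequenced from 14 libraries, 1 for each condition. Wild type plants were MG20 (Miyakojima), and the mutant was apn1, described in the study as Fix-, which means that its nodules do not fix nitrogen; the sample titles spell it anp1. For each genotype there was 1 library of uninoculated root and 6 of nodules, from plants inoculated with the Mesorhizobium loti strain MAFF303099 or the strain TONO and collected 5, 7 or 10 days after inoculation (dai). All plants grew in vermiculite on nitrogen-free medium, and the inoculated ones received the bacteria 7 days after planting. Per the labels, nodule primordia and developing nodules were cut from the roots, and ribosomal RNA was depleted for both plant and bacterium. How many plants gave each library is not stated in the labels.

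In root nodule symbiosis, legume roots recognise compatible rhizobia, cortical cells divide to form a nodule primordium, and bacteria released into nodule cells differentiate into nitrogen-fixing bacteroids. The organ that results differs from the root in its cell types, its oxygen level and its nitrogen and carbon metabolism. APN1 is known to encode an aspartic peptidase of the nepenthesin type, and from earlier work the failure of nitrogen fixation in the mutant is known to depend on the rhizobial strain. In bulk tissue such as this, fewer cells of a type and less RNA per cell cannot be told apart.

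The libraries held 33981124 to 58395305 counts, and the 4 nodule libraries of 10 dai held 33981124 to 37261815. Depth did not limit the 80 gene models: their lowest count in any library was 2306, for which counting error is 2.1%. All gene models, given below as background, go down to a mean count of 10, where counting error is larger. Their shares past a 2-fold limit are therefore not fully like for like. TMM factors lay between 0.902 and 1.126, except 0.762 in wild type nodules with TONO at 10 dai. That library's CPM values are raised by its factor relative to plain total-count scaling, and where a count or ratio below rests mainly on that library, its value with total counts only is given beside it. Single CPM values are all after TMM. The deposited identifiers are not paired with gene names in the sources used here, so the gene models are named by identifier, no function is given for them, and tissue markers were not checked. Gene lengths were not used, so CPM values are compared between libraries and not between gene models as levels of expression.

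The set held a smaller share of all counts in every nodule library than in either root. Of the deposited counts it took 15.1% in wild type roots and 15.3% in apn1 roots. In wild type nodules with MAFF303099 it took 11.1%, 10.2% and 10.9% at 5, 7 and 10 dai, and with TONO 12.8%, 11.8% and 12.1%. In apn1 nodules it took 11.9%, 11.3% and 11.0% with MAFF303099 and 12.2%, 11.6% and 11.2% with TONO. The 95% Wilson interval extended no further than 0.011 percentage points either way and covers counting error only; with 1 library per condition there is no replicate spread to set beside it. Both wild type series were lowest at 7 dai, and both apn1 series were lower at each later day. The 410 gene models of the next class, from 300 to under 1000 CPM in the higher root, went from 19% and 18.7% in the roots to between 12.8% and 16.9% in nodules.

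The pair of gene models with the highest root counts accounted for part of this difference. The gene model with the highest mean root CPM, chr1.CM0113.680.r2.d, held 0.997% of all counts in wild type roots and 1.44% in apn1 roots. In nodules its share was between 0.0773% and 0.492%. The next, LjSGA_000444.1, went from 0.802% and 0.796% in the roots to between 0.166% and 0.223%. Without these, the other members held 13.3% and 13.1% in the roots and between 9.91% and 12.3% in nodules, so the share was lower in nodules without them as well.

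**Figure D1:**
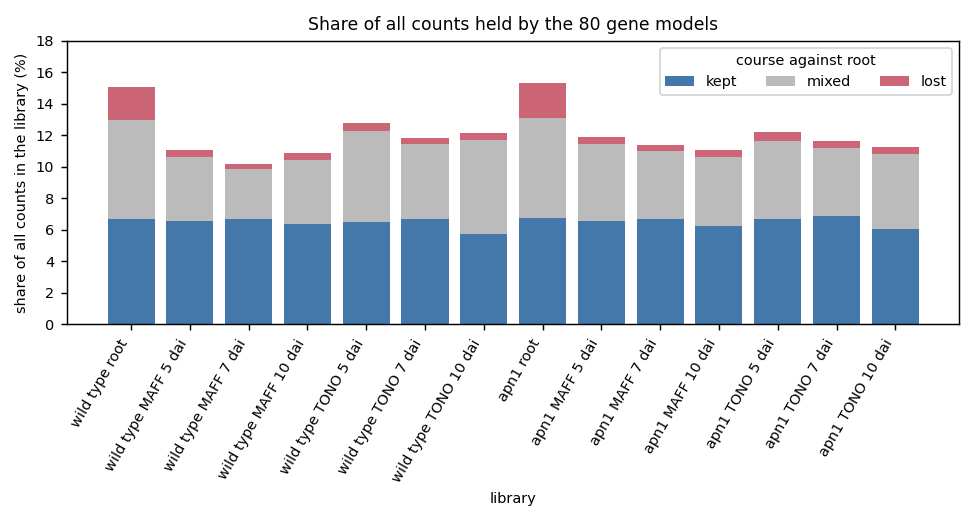
Share of all deposited counts (%, vertical axis) held by the 80 gene models in each of the 14 libraries, stacked by their course against the root of the same genotype: kept (31 gene models), mixed (39) and lost (10). The kept layer stays between 5.74% and 6.86% throughout, while the lost layer goes from 2.12% and 2.19% in the roots to at most 0.57% in nodules. Both courses are largely built in, because the classes were defined by the ratio to the root.

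Each gene model was next placed by its course. It was called kept when all 12 nodule libraries lay within 2-fold of the root of the same genotype, lost when all 12 lay at least 2-fold below, gained when all 12 lay at least 2-fold above, and mixed otherwise. Of the 80, 31 were kept (38.8%), 10 were lost (12.5%), none was gained and 39 were mixed. Among all 32777 gene models with a mean count of at least 10, 31.8% were kept, 3.84% lost and 2.77% gained. In the next class 31.0% were kept and 12% lost. The share of lost members is thus near that of the next class. Within wild type alone (6 nodule libraries) 31 were kept, 12 lost and 0 gained, where 38.2%, 5.71% and 4.2% of all gene models were. Within apn1 44 were kept, 16 lost and 2 gained, where 44.9%, 5.77% and 4.64% of all were.

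The kept gene models changed little in their share of the library, which staying within 2-fold of the root largely builds in. Together they held 6.67% and 6.75% of counts in the roots and from 5.74% to 6.86% in nodules. LjSGA_000588.1 had 6108 CPM in the wild type root, 5570, 6324 and 7040 CPM in wild type nodules with MAFF303099 at 5, 7 and 10 dai, and 6892, 7569 and 7451 CPM with TONO. In the mutant it had 5957 CPM in the root, 5891, 7034 and 6984 CPM with MAFF303099 and 5986, 7131 and 5742 CPM with TONO. Root and nodule values of this gene model overlapped in both genotypes. LjSGA_000643.2 had 5472 CPM in the wild type root and 5770 to 8296 CPM in wild type nodules, and 5699 CPM in the apn1 root and 6176 to 7613 CPM in apn1 nodules. Every nodule value was above the root of its genotype, but none by 2-fold.

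A fall is built into the definition of the lost class. Its gene models went from 2.12% and 2.19% of counts in the roots to between 0.302% and 0.57% in nodules. The lowest was chr3.CM0423.420.r2.m, which had 1406 CPM in the wild type root, 76, 71 and 97 CPM with MAFF303099 and 82, 118 and 220 CPM with TONO. Its level in apn1 was 1508 CPM in the root, 80, 109 and 126 CPM with MAFF303099 and 138, 146 and 318 CPM with TONO. The median nodule value was 12.8-fold below the root, and the highest nodule values were those of TONO at 10 dai in either genotype. The next, chr1.CM0105.1500.r2.m, had 1624 CPM in the wild type root and 55 to 207 CPM in wild type nodules. In apn1 it had 1309 CPM in the root and 105 to 342 CPM in nodules, and its median nodule value was 9.73-fold below the root. LjSGA_000444.1 was lost at a steadier level: 7803 CPM in the wild type root against 1656 to 2695 CPM in nodules, and 7553 CPM in the apn1 root against 1664 to 2272 CPM. For all 10, the root and nodule values did not overlap in either genotype, which the definition of the class fixes.

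**Figure D2:**
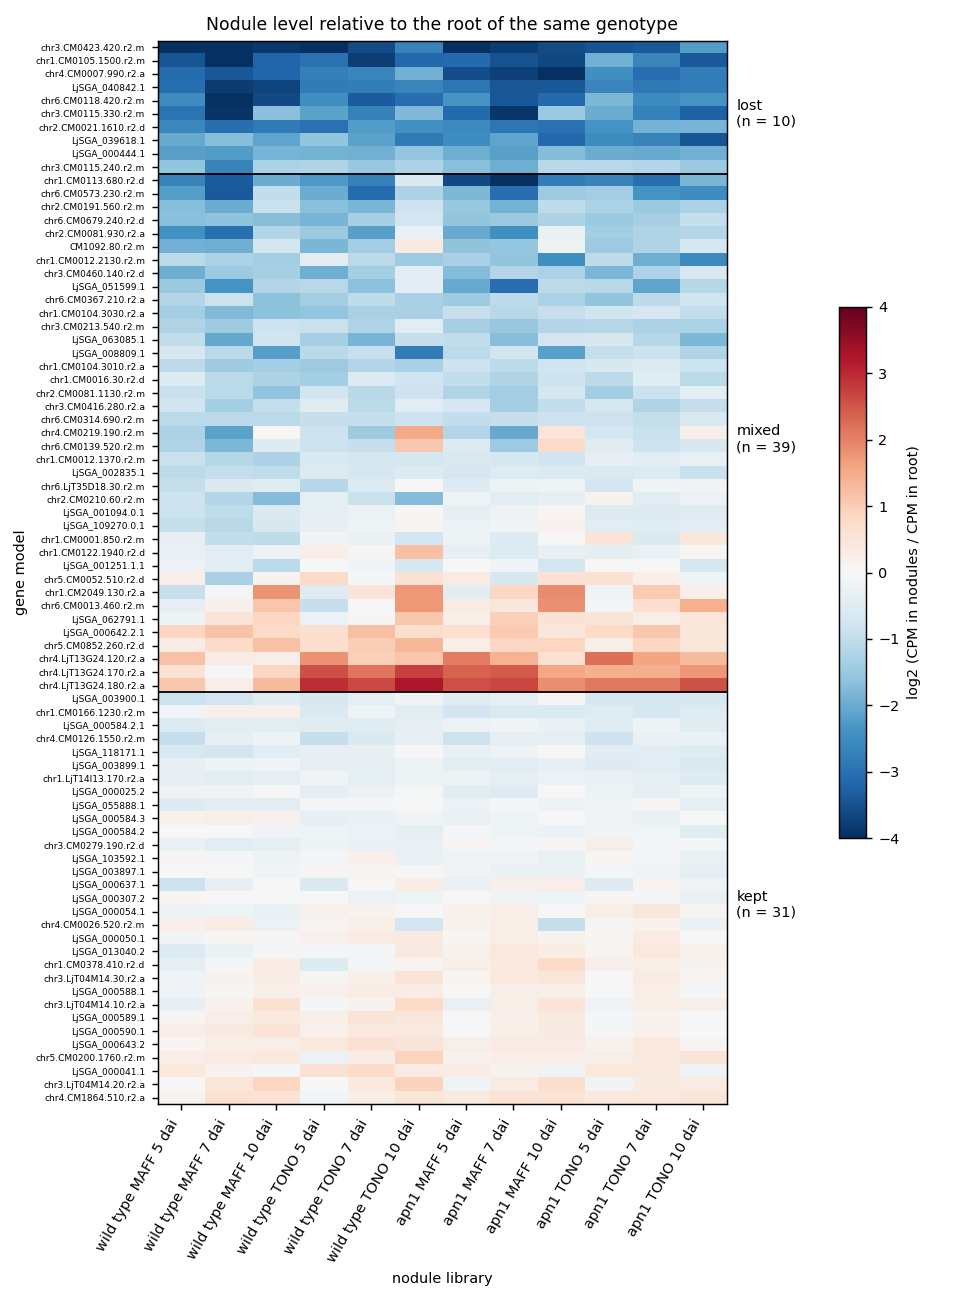
Log2 ratio of CPM in each nodule library to the root of the same genotype (colour, blue below and red above the root, ends at 4) for the 80 gene models (vertical axis) in 12 nodule libraries (horizontal axis), grouped as lost (10), mixed (39) and kept (31) and ordered by their median ratio within each group. The 3 deepest red gene models at the foot of the mixed group are those of chr4.LjT13G24, of which chr4.LjT13G24.170.r2.a and chr4.LjT13G24.180.r2.a are palest in wild type nodules with MAFF303099.

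By library, gene models far below the root outnumbered those far above it everywhere. With MAFF303099, wild type nodules had 27, 35 and 28 members at least 2-fold below the root at 5, 7 and 10 dai, where 14.9%, 16.7% and 20.1% of all gene models were, and 2, 1 and 4 members at least 2-fold above, where 14.5%, 17.1% and 17.1% of all were. With TONO the counts below were 25, 27 and 17 (15.3%, 16.5% and 21.5% of all) and those above 3, 3 and 10 (13.2%, 15.4% and 16.4%). In apn1 with MAFF303099 they were 24, 29 and 20 below (14.8%, 15.1% and 18.7%) and 3, 4 and 4 above (14.6%, 15.9% and 14.4%). In apn1 with TONO they were 23, 23 and 21 below (14.8%, 13.9% and 16%) and 3, 5 and 4 above (13.5%, 14.7% and 14.8%). Wild type with TONO at 10 dai stood apart with the fewest below and the most above; with total counts only it had 28 below and 5 above. The members' median log2 ratio to the root was between -0.66 and -0.24 over the 12 libraries and that of the next class between -0.83 and -0.43, while that of all gene models was between -0.04 and 0.03. For wild type with TONO at 10 dai the members' median was -0.24 with TMM scaling and -0.67 with total counts only, so its apparent distance from the other libraries depends on the scaling.

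Some members stayed above 1000 CPM throughout, and other gene models joined them in nodules. Of the 80, 28 had at least 1000 CPM in all 12 nodule libraries, 25 had less in all 12, and 27 were on either side. In wild type nodules with MAFF303099, 56, 77 and 105 gene models reached 1000 CPM at 5, 7 and 10 dai, of which 39, 40 and 41 were members. With TONO, 72, 97 and 150 did, of which 43, 44 and 49 were members; at 10 dai total-count scaling gave 103, of which 41 were members. In apn1 nodules with MAFF303099, 63, 89 and 114 did, of which 38, 41 and 44 were members. In apn1 with TONO, 63, 78 and 77 did, of which 41, 43 and 40 were members. The number of members above the limit thus lay between 38 and 49 throughout, while the number of other gene models above it was higher at 10 than at 5 dai in all 4 combinations of genotype and strain.

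**Figure D3:**
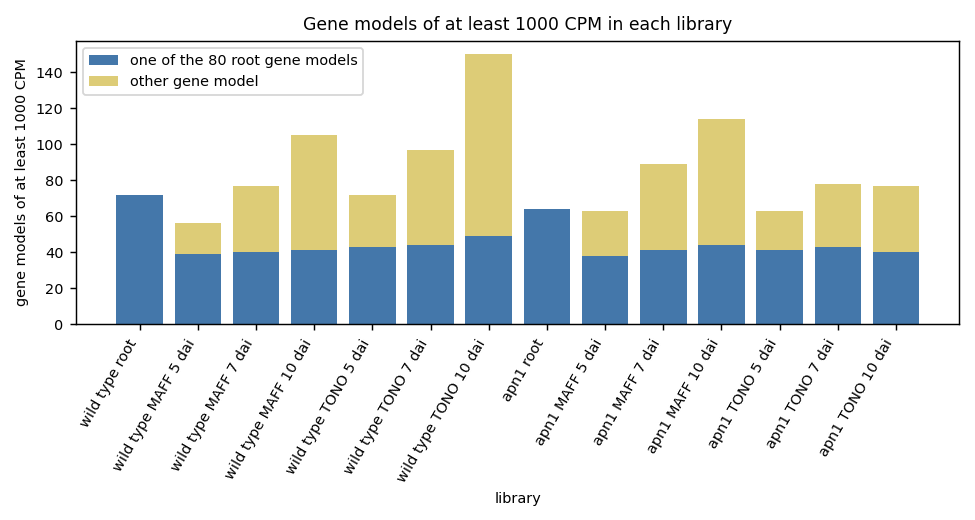
Number of gene models of at least 1000 CPM (vertical axis) in each of the 14 libraries, split into the 80 root gene models (blue) and all others (yellow); in the roots all are members by the rule. The blue part lies between 38 and 49 in nodules, and the whole bar is tallest in wild type with TONO at 10 dai (150, or 103 with total-count scaling) and does not go up from 7 to 10 dai in apn1 with TONO (78 and 77).

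Changes between days were tested among the 12 nodule libraries, none of which entered the choice of members. edgeR's quasi-likelihood test was fitted to 32549 gene models with additive terms for the 4 combinations and the 3 days, and p-values were adjusted over all of them. Because each condition has 1 library, the p-values measure what the additive terms leave over and not the spread between plants. The common biological variation of that fit was 22.7%, with 6 residual degrees of freedom.

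Between 5 and 10 dai, 31 of the 80 members changed, 22 of them higher and 9 lower at 10 dai. This is 38.8% of members, against 45.8% of all gene models (23.4% higher and 22.4% lower) and 51.5% of the next class, a smaller share than in either. Of the 31, 8 changed by at least 2-fold (10% of members), where 21.2% of all gene models passed and changed by 2-fold. The median fitted change of members was 0.15 on the log2 scale, against 0.02 for all gene models. The split by direction depends on scaling: with total counts only, 12 were higher and 24 lower, and the members' median was -0.15 where that of all gene models was -0.29.

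The largest rise was that of chr1.CM2049.130.r2.a. It had 1520 CPM in the wild type root, then 801, 1485 and 5270 CPM with MAFF303099 and 1053, 2164 and 5090 CPM with TONO. In the mutant it had 889 CPM in the root, then 669, 1565 and 3286 CPM with MAFF303099 and 786, 1855 and 1024 CPM with TONO. It was higher at 10 than at 5 dai in 4 of 4 combinations (log2 difference 2.05, SE 0.37, adjusted p = 0.00151 by edgeR), but in apn1 with TONO the 10 dai value lay below that of 7 dai.

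chr6.CM0013.460.r2.m had 1174 CPM in the wild type root, 895, 1366 and 2544 CPM with MAFF303099 and 614, 1169 and 3873 CPM with TONO. Its level in apn1 was 836 CPM in the root, 1055, 1140 and 2947 CPM with MAFF303099 and 816, 1334 and 2262 CPM with TONO. Its values went up at each step in all 4 combinations (10 against 5 dai, log2 difference 1.79, SE 0.22, adjusted p = 0.000146 by edgeR), and all 4 values of 10 dai lay above all 8 of 5 and 7 dai. It is 1 of 4 members (5%) with a rise at each step in all 4 combinations, where 5.85% of all gene models had one. The others were chr4.CM0126.1550.r2.m, chr5.CM0200.1760.r2.m and chr6.LjT35D18.30.r2.m. These rises are those after TMM scaling. With total counts only, none of these 4 members rose at each step in all 4 combinations.

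The strongest falls between 5 and 10 dai were smaller. LjSGA_008809.1 had 1692 CPM in the wild type root, 1060, 803 and 370 CPM with MAFF303099 and 798, 902 and 245 CPM with TONO. In apn1 it had 1553 CPM in the root, 752, 935 and 347 CPM with MAFF303099 and 794, 863 and 672 CPM with TONO. All 4 values of 10 dai lay below all 8 of 5 and 7 dai, and the value of apn1 with TONO was the nearest to them (log2 difference -1.11, SE 0.25, adjusted p = 0.00447 by edgeR). chr4.LjT13G24.120.r2.a was above its root in every nodule library and lower at 10 than at 5 dai in all 4 combinations. Its values were 3050 to 5026 CPM at 5 dai and 1579 to 2906 CPM at 10 dai, against 1350 and 1103 CPM in the wild type and apn1 roots. In wild type with TONO it was not lower at each step, with 2607 CPM at 7 dai and 2906 CPM at 10 dai. Its log2 difference between 5 and 10 dai was -0.98 (SE 0.17, adjusted p = 0.00101 by edgeR).

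From 5 to 7 dai, 10 of 80 members changed, 4 higher and 6 lower (12.5%, against 19.8% of all gene models, 10.6% higher and 9.2% lower). The count is unstable: leaving out single libraries gave between 3 and 21, and leaving out apn1 with TONO at 10 dai gave the 21. Leaving out all libraries of 10 dai gave 27, and with total counts only 2 were higher and 12 lower. The firmest fall was that of chr6.CM0118.420.r2.m, a lost gene model. It had 1195 CPM in the wild type root, 207, 68 and 98 CPM with MAFF303099 and 219, 119 and 146 CPM with TONO. In the mutant it had 1145 CPM in the root, 225, 109 and 134 CPM with MAFF303099 and 326, 198 and 219 CPM with TONO. It was lowest at 7 dai in all 4 combinations (7 against 5 dai, log2 difference -1.07, SE 0.14, adjusted p = 0.000652 by edgeR).

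The other named changes from 5 to 7 dai each lost the threshold under some alternatives. chr6.CM0573.230.r2.m went from 515 to 235 CPM in wild type with MAFF303099, from 608 to 284 CPM with TONO, from 581 to 243 CPM in apn1 with MAFF303099 and from 768 to 386 CPM with TONO. Its log2 difference was -1.11 (SE 0.33, adjusted p = 0.0405 by edgeR), and it missed the threshold in 8 of 19 alternatives. LjSGA_000637.1, a kept gene model, was higher at 7 dai by 0.55 on the log2 scale (SE 0.14, edgeR adjusted p = 0.02). chr4.CM0126.1550.r2.m, also kept, was higher by 0.49 (SE 0.12, edgeR adjusted p = 0.0182). They missed the threshold in 5 and 6 of 19 alternatives, with 4 of 4 combinations higher at 7 dai for either gene model.

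From 7 to 10 dai, 19 of 80 members changed, 13 higher and 6 lower (23.8%, against 29.3% of all gene models, 13.7% higher and 15.6% lower). With total counts only the split was 9 higher and 10 lower, and without apn1 with TONO at 10 dai 29 members changed. The largest rise was that of chr4.CM0219.190.r2.m, the most variable member over nodules. It had 1013 CPM in the wild type root, 424, 228 and 1059 CPM with MAFF303099 and 568, 382 and 2899 CPM with TONO. Its level in apn1 was 994 CPM in the root, 445, 248 and 1433 CPM with MAFF303099 and 611, 532 and 1168 CPM with TONO. Each of the 8 nodule values of 5 and 7 dai was below the roots and each of the 4 of 10 dai above them (10 against 7 dai, log2 difference 2.23, SE 0.27, adjusted p = 0.000484 by edgeR). With total counts only, the 10 dai value of wild type with MAFF303099 lay below both roots.

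chr1.CM0113.680.r2.d, with the highest mean root CPM of all, followed the same days at a different height. It had 9696 CPM in the wild type root, 1535, 975 and 2455 CPM with MAFF303099 and 1992, 1503 and 6462 CPM with TONO. In apn1 it had 13691 CPM in the root, 1122, 776 and 2033 CPM with MAFF303099 and 2145, 1685 and 3877 CPM with TONO. It was lowest at 7 dai and highest at 10 dai in all 4 combinations, and every nodule value lay below both roots (10 against 7 dai, log2 difference 1.53, SE 0.19, adjusted p = 0.000523 by edgeR). In the opposite direction, chr4.CM0026.520.r2.m was lower at 10 than at 7 dai in 4 of 4 combinations, at 456 to 928 CPM against 986 to 1352 CPM (log2 difference -0.78, SE 0.16, adjusted p = 0.00611 by edgeR).

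Within single combinations, 2-fold differences were few between 5 and 7 dai. From 5 to 7 dai, 0, 1, 1 and 1 members were at least 2-fold higher in wild type with MAFF303099, wild type with TONO, apn1 with MAFF303099 and apn1 with TONO (7.74%, 10.3%, 8.32% and 9.38% of all gene models), and 6, 1, 3 and 2 lower (6.28%, 8.62%, 6.69% and 7.32%). From 7 to 10 dai, in the same order, 15, 11, 11 and 4 were higher (8.48%, 11.3%, 7.51% and 5.78%) and 1, 2, 3 and 0 lower (13.8%, 16%, 14.2% and 8.44%). Between 5 and 10 dai 8, 13, 7 and 4 were higher (12.6%, 15.2%, 12.2% and 12.4%) and 2, 3, 4 and 5 lower (15.9%, 18.5%, 16.7% and 12.8%). The combination of apn1 with TONO had the fewest members at least 2-fold higher at 10 dai against either earlier day. For wild type with TONO at 10 dai, total-count scaling gave 7 higher and 4 lower than at 7 dai, and 7 higher and 9 lower than at 5 dai.

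A low point at 7 dai in all 4 combinations was shared by 9 of 80 members (11.2%), where 9.27% of the next class and 3.77% of all gene models had one. Besides chr1.CM0113.680.r2.d, LjSGA_000444.1, chr6.CM0118.420.r2.m and chr4.CM0219.190.r2.m, these were chr2.CM0191.560.r2.m, chr3.CM0213.540.r2.m, chr3.CM0416.280.r2.a, chr6.CM0139.520.r2.m and LjSGA_051599.1. They were picked out by this shape and so have no test as a group. With total counts only there were 7, and over the 3 combinations without apn1 with TONO there were 17. Lower values at each step in all 4 combinations were found in 3 members, where 7.64% of all gene models had them, and a high point at 7 dai in 2, where 5.6% had one.

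**Figure D4:**
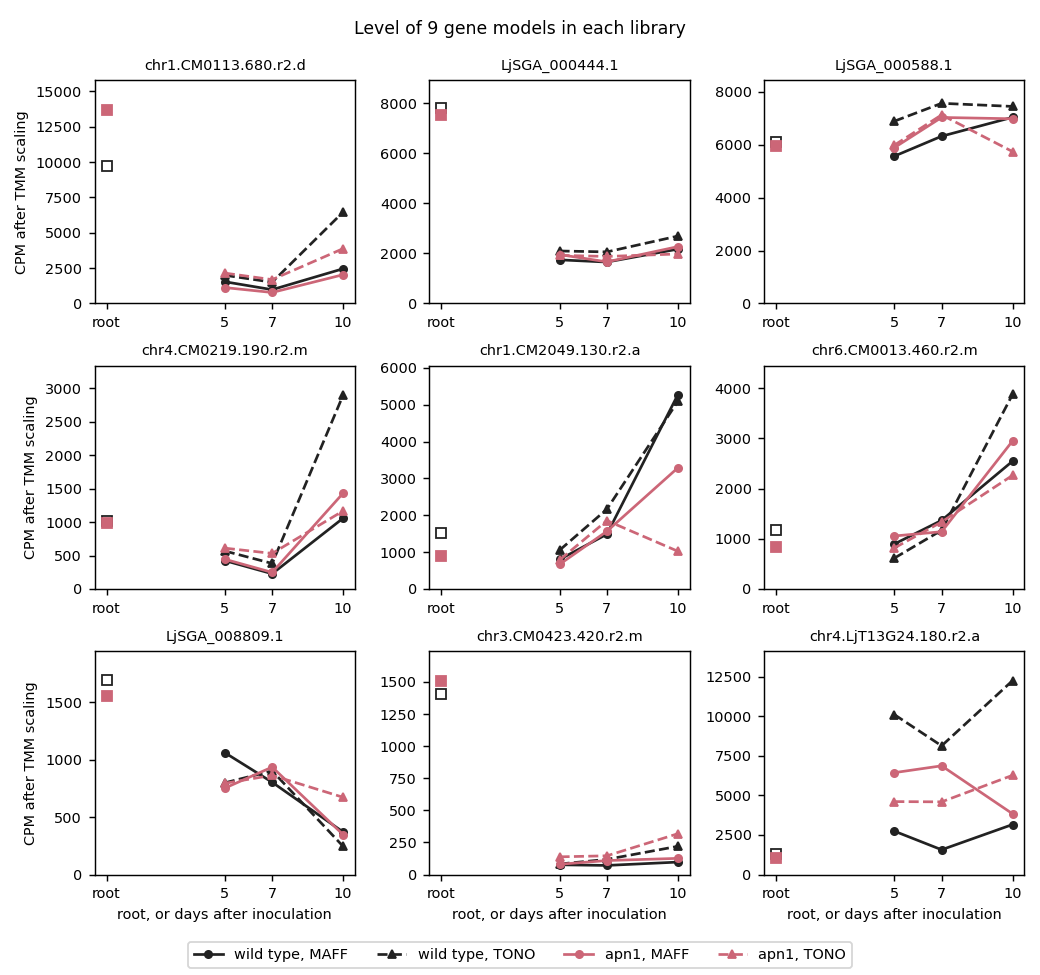
CPM after TMM scaling (vertical axis, from 0) of 9 gene models in the uninoculated root (squares, open for wild type) and at 5, 7 and 10 dai (horizontal axis), in wild type (black) and apn1 (red), with MAFF303099 (solid line, circles) and TONO (broken line, triangles); each point is 1 library. chr1.CM0113.680.r2.d stays below its roots, LjSGA_000588.1 stays near them, and chr4.LjT13G24.180.r2.a lies above them in every nodule library, from 1566 to 12253 CPM.

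The strain comparison in wild type gave the only members past the threshold outside the day comparisons. Of 80, 2 were higher with TONO than with MAFF303099 and 0 lower. This is 2.5%, against 0.261% of all gene models (0.203% higher and 0.0584% lower) and 1.22% of the next class, all of those higher. Both members belong to the chr4.LjT13G24 group. chr4.LjT13G24.180.r2.a had 1307 CPM in the wild type root, 2743, 1566 and 3161 CPM with MAFF303099 and 10108, 8132 and 12253 CPM with TONO. In the mutant it had 1067 CPM in the root, 6437, 6869 and 3837 CPM with MAFF303099 and 4609, 4592 and 6270 CPM with TONO. In wild type the strains did not overlap (log2 difference 2.05, SE 0.31, adjusted p = 0.038 by edgeR), whereas in apn1 they did and the fitted difference was -0.19.

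chr4.LjT13G24.170.r2.a ran alongside it. It had 1219 CPM in the wild type root, 1827, 1150 and 2188 CPM with MAFF303099 and 7304, 5364 and 8128 CPM with TONO. Its level in apn1 was 954 CPM in the root, 4892, 5278 and 2798 CPM with MAFF303099 and 2545, 2588 and 3173 CPM with TONO. Its strain difference in wild type was 2.02 on the log2 scale (SE 0.31, edgeR adjusted p = 0.038), and in apn1 -0.67. The difference between these strain effects did not pass the threshold for either gene model (interaction -2.69, edgeR adjusted p = 0.183, and for chr4.LjT13G24.180.r2.a -2.23, edgeR adjusted p = 0.309). It did pass by DESeq2 (adjusted p = 2.45e-07 and 9.95e-05) and by edgeR without apn1 with MAFF303099 at 10 dai (adjusted p = 0.0186 and 0.0392). Both calls were lost in 13 of 21 alternatives, among them the removal of any 1 of 10 libraries and total-count scaling, while the fitted difference stayed between 1.80 and 2.24. In apn1 these 2 were the gained members, with all 6 nodule libraries at least 2-fold above the root.

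Across the set, the members' median strain difference in wild type was 0.26 on the log2 scale, with 59 of 80 higher with TONO. That median was -0.02 for all gene models and 0.22 for the next class, so the lean was not particular to the members. With total counts only the members' median was 0.11 and 49 were higher. By day, 2, 7 and 10 members were at least 2-fold higher with TONO at 5, 7 and 10 dai and 0 lower, where 4.16%, 3.69% and 5.87% of all gene models were higher and 6.51%, 5.54% and 7.83% lower. With total counts only, 7 rather than 10 were higher at 10 dai. Of the 410 of the next class, 21, 33 and 48 were at least 2-fold higher after TMM at 5, 7 and 10 dai, and 4, 2 and 2 lower. An unadjusted p under 0.05 was reached by 28 members (35%, against 27.1% of the next class and 15.5% of all gene models). DESeq2, which takes the spread differently, called 21 (19 higher and 2 lower; 26.2%, against 4.18% of all), and edgeR without apn1 with TONO at 10 dai called 5. Within apn1 the members' median strain difference was 0.05, with 47 of 80 higher with TONO. With total counts only it was 0.12 with 57 higher, so which genotype had the larger median depends on the scaling. The apn1 counts at least 2-fold higher with TONO were 3, 5 and 3 (2.68%, 2.87% and 9.24% of all) and those lower 0, 1 and 5 (3.39%, 3.08% and 6.43%). In apn1 no member passed for strain by edgeR, 13 had an unadjusted p under 0.05 (16.2%, against 5.37% of all), and DESeq2 called 2 (2.5%, against 0.147% of all).

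No member differed between apn1 and wild type by edgeR. With MAFF303099, 0 of 80 passed (0.0522% of all gene models did, 0.0369% higher and 0.0154% lower), 11 had an unadjusted p under 0.05 (13.8%, against 7.44% of all), and DESeq2 called 6 (7.5%, against 0.725% of all), all higher in apn1. With TONO, 0 of 80 passed (0.0614% of all did, 0.0369% higher and 0.0246% lower), 7 had an unadjusted p under 0.05 (8.75%, against 9.79% of all), and DESeq2 called 1 (1.25%, against 0.565% of all), chr4.LjT13G24.170.r2.a, as lower. The interaction of genotype and strain gave 0 members by edgeR, 10 with an unadjusted p under 0.05 (12.5%, against 8.27% of all), and 6 by DESeq2 (7.5%, against 0.596% of all). A p above the threshold does not show that the genotypes had the same level.

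Nearest to the threshold was LjSGA_109270.0.1, named here after its values were seen. It had 1544 CPM in the wild type root, 806, 714 and 996 CPM with MAFF303099 and 1239, 1369 and 1652 CPM with TONO. In apn1 it had 1782 CPM in the root, 1514, 1658 and 2026 CPM with MAFF303099 and 1301, 1275 and 1335 CPM with TONO. The 3 values of wild type nodules with MAFF303099 were the lowest of all 14 libraries (apn1 against wild type with that strain, log2 difference 1.05, SE 0.14, adjusted p = 0.0514 by edgeR). It passed in 6 of 21 alternatives, with adjusted p between 1.8e-12 (DESeq2) and 0.0487. Among those in which it did not pass were total-count scaling and the removal of all libraries of 5, of 7 or of 10 dai. LjSGA_001094.0.1 had nearly the same profile, at 0.917 to 1.05 times its CPM in the 14 libraries, and a difference of 0.89 (SE 0.14, edgeR adjusted p = 0.109). Such a pair may be near-identical copies that share reads, and their values may then not be independent. LjSGA_003900.1 and LjSGA_118171.1 were also higher in apn1 with MAFF303099 on all 3 days, by a fitted 0.59 each (SE 0.15 and 0.14), and passed by DESeq2 but not by edgeR (adjusted p = 0.425 and 0.342).

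Set pair by pair, the fewest 2-fold differences were in the roots and the most with TONO at 10 dai. In the roots 0 members differed by 2-fold, where 3.62% of all gene models were higher and 2.99% lower in apn1. Of the 410 of the next class, 5 were higher and 2 lower there. With MAFF303099, 2, 5 and 2 members were at least 2-fold higher in apn1 at 5, 7 and 10 dai (2.61%, 3.2% and 6.18% of all) and 0, 0 and 1 lower (2.54%, 2.59% and 6.29%). With TONO, 0, 0 and 2 were higher (3.83%, 4.73% and 12.8%) and 2, 1 and 10 lower (2.64%, 2.66% and 9.01%). At that last pair 64 of 80 members were lower in apn1, with a median log2 ratio of -0.35 where that of all gene models was 0.03. The next class had a median of -0.19, with 41 of 410 at least 2-fold lower and 13 higher. The members' direction depends on the scaling of the wild type library with the factor 0.762. With total counts only their median was 0.05, with 46 members higher and 34 lower, and 4 rather than 10 were at least 2-fold lower.

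Of the 10 lower members, chr1.CM2049.130.r2.a stood out with 1024 CPM in apn1 against 5090 CPM in wild type (4.97-fold, or 3.77-fold with total counts only). chr6.CM0139.520.r2.m had 779 against 3145 CPM (4.04-fold, or 3.06-fold with total counts only). In the other 5 pairs of nodule libraries its genotypes were closer. With MAFF303099 at 10 dai its order was the opposite, at 2093 CPM in apn1 against 1056 CPM in wild type. With TONO at 10 dai, chr4.CM0219.190.r2.m had 1168 against 2899 CPM and chr6.CM0573.230.r2.m 364 against 1012 CPM. Of the 2 higher members, LjSGA_008809.1 had 672 against 245 CPM and chr2.CM0210.60.r2.m 1055 against 515 CPM. Each of these is a difference between single libraries, and for each of these 6 the apn1 value lay nearer, as a ratio, to its own 7 dai value (1855, 690, 532, 386, 863 and 909 CPM in the order named) than the wild type value did to its own (2164, 785, 382, 284, 902 and 922 CPM). The 6 were picked after their values were seen. Of the members 2-fold apart but not shown, only chr1.CM0012.2130.r2.m went the other way after TMM. From 7 to 10 dai it went from 372 to 246 CPM in apn1 and from 628 to 493 CPM in wild type.

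**Figure D5:**
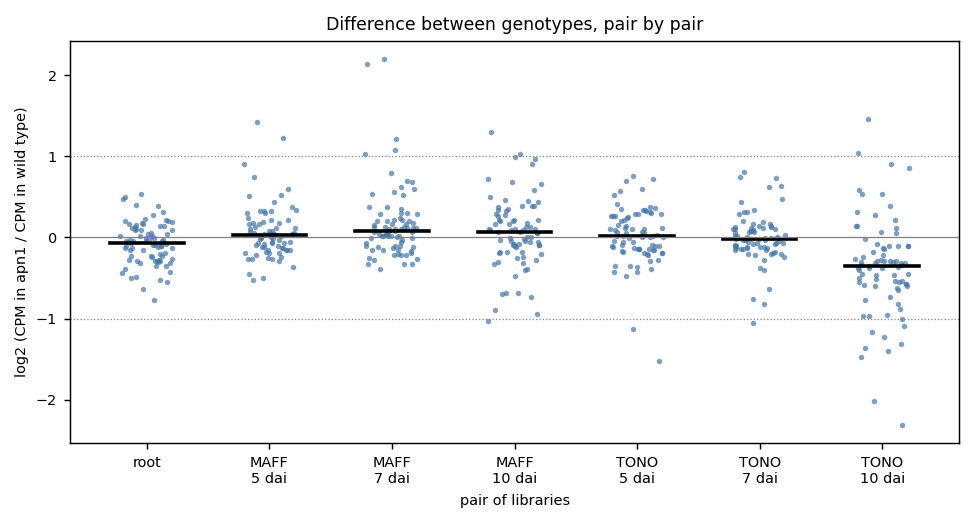
Log2 ratio of CPM in apn1 to CPM in wild type (vertical axis) for the 80 gene models in the 7 pairs of libraries (horizontal axis); each point is 1 gene model, horizontal position within a column is random, bars are medians and dotted lines mark 2-fold. Medians lie between -0.06 and 0.07 except with TONO at 10 dai, at -0.35, which is 0.05 with total-count scaling.

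How much members varied over the 12 nodule libraries ranged widely. The SD of log2 CPM was 0.10 to 1.08, with a median of 0.34, against 0.39 for the next class and 0.43 for all gene models. It was under 0.2 for 21 members (26.2%), where 13.9% of the next class and 10.5% of all gene models were that even. It was over 0.5 for 20 (25%, against 35.1% of the next class and 40.6% of all). Counting error, larger at low counts, is part of these SDs. LjSGA_003899.1 and chr3.CM0279.190.r2.d were among the most even, at 1657 to 2124 CPM and 1190 to 1471 CPM. chr4.CM0219.190.r2.m and chr1.CM2049.130.r2.a had the highest SDs, 1.08 and 1.02.

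The members also split by the form of their identifier, a pattern seen only after the values were known and therefore not tested. Of the 80, 32 (40%) begin with LjSGA, as do 42.2% of all gene models. Of these 20 were kept, 3 lost and 9 mixed, with a median log2 ratio to the root of -0.16. Of the other 48, 11 were kept, 7 lost and 30 mixed, with a median of -0.80. Courses were not counted by identifier form over all gene models, so this split may not be particular to the members. The LjSGA members held 6.7% and 6.95% of counts in the roots and between 4.75% and 5.92% in nodules, and the others 8.37% and 8.35% against 4.75% to 7.39%.

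Some members may not be independent of each other. By their identifiers, 11 lie in 4 runs of neighbours: LjSGA_000584 (3 members), chr1.CM0104 (2), chr3.LjT04M14 (3) and chr4.LjT13G24 (3). Over the nodules the ratio within chr1.CM0104 was nearly fixed (SD of the log2 ratio 0.09), and within chr3.LjT04M14 the SDs were 0.08 to 0.19. They were 0.20 to 0.24 within LjSGA_000584 and 0.20 to 0.77 within chr4.LjT13G24. Of 3160 pairs of members 13 had an SD under 0.1, where the median pair had 0.52. The members of chr3.LjT04M14 were all kept and were higher at 10 than at 5 dai by 0.78, 0.76 and 0.37 on the log2 scale (edgeR adjusted p = 0.00142, 0.00136 and 0.0498). How reads shared by similar, overlapping or antisense gene models were counted is not given in the sources used here.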

How the data were processed

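Per the file headers, the authors deposited original read counts per gene model, in 12 tables that each pair 1 nodule library with the root of its genotype; each root was identical in its 6 tables and was used once. The iDEGES/DESeq values beside the counts were scaled within each pair and were not used. Bowtie2 2.0.2 and DESeq appear in the submitters' processing notes. Genome build, annotation, counting tool and strand setting were not named by the sources used here. All count columns were mapped by name (0 left over), and 0 of 38476 identifiers matched the gene table of assembly LjGifu_v1.2.

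Counts were scaled by TMM over 14 libraries for CPM (edgeR 4.0.16, R 4.3.3) and over the 12 nodule libraries for tests, with gene models under a mean count of 10 left out. edgeR's quasi-likelihood test used additive terms for genotype-strain combination and day, Benjamini-Hochberg adjustment over all gene models tested and a threshold of 0.05. It was also run on simulated counts, with the same spread for every gene model and no departure from the additive terms. That run cannot show how the test behaves on these libraries, and its outcome is not given here. Alternatives were DESeq2 1.42.0, limma 3.58.1 (voom), other scalings, no filter, other limits, and leaving out each library or day. Figures were drawn with matplotlib 3.10.9 in Python 3.11.15.

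Named gene models are, per contrast, at most 2 higher and 2 lower members with the largest change, the same direction throughout and an adjusted p past the threshold; at most 2 gained and 2 lost; the 4 highest in the roots; and the nearest to the limit. Others were named after their values were seen. The members, classes and tests were chosen with earlier results of these data known.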

Additional observations from a re-analysis of the deposited data

Results flagged for a closer look

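For 6 of the named gene models, a difference between genotypes or strains had one sign on all 3 days in one group and the opposite sign on all 3 days in the other. Such signs were not counted over all members or all gene models, so the 6 cannot be set against a background. Opposite signs alone are no test, and none of the interactions passed the threshold by edgeR in the fit of all 12 nodule libraries. The apn1 to wild type difference of chr4.LjT13G24.170.r2.a averaged 1.32 on the log2 scale with MAFF303099 and -1.31 with TONO, a gap of 2.63 (edgeR interaction, adjusted p = 0.183; 0.0186 without apn1 with MAFF303099 at 10 dai and 0.0323 without all libraries of 10 dai). For chr4.LjT13G24.180.r2.a it averaged 1.21 and -0.97, a gap of 2.19 (adjusted p = 0.309 by edgeR; 0.0392 without apn1 with MAFF303099 at 10 dai). The remaining gaps were smaller. The genotype difference of LjSGA_000637.1 averaged 0.31 with MAFF303099 and -0.23 with TONO, a gap of 0.54, and its TONO to MAFF303099 difference averaged 0.29 in wild type and -0.25 in apn1, also a gap of 0.54 (edgeR interaction, adjusted p = 0.589). For LjSGA_000643.2 the genotype difference averaged 0.17 and -0.22, a gap of 0.39 (adjusted p = 0.658 by edgeR). For LjSGA_000444.1 it averaged 0.08 and -0.23, a gap of 0.31 (adjusted p = 0.7 by edgeR). The strain difference of chr4.CM0126.1550.r2.m averaged -0.13 in wild type and 0.09 in apn1, a gap of -0.22 (edgeR interaction, adjusted p = 0.778). These signs are those after TMM scaling: with total counts only, the genotype differences of LjSGA_000637.1, LjSGA_000643.2 and LjSGA_000444.1 no longer had opposite signs on all 3 days, while the other patterns held.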

How the results depend on the processing

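No paired analysis was possible because each condition has 1 library, so its replicate number is the same everywhere and pairs nothing beyond the terms already fitted. The 10 against 5 dai count stayed within 1.5 times its value of 31 in every alternative run (21 to 42, with 22 to 42 on leaving out single libraries), but total-count scaling, which moves the median of all gene models by -0.29 between those days, turned its split to 12 higher and 24 lower. From 5 to 7 dai the count of 10 became 20 with DESeq2, 27 without the 10 dai libraries and 3 to 21 without single libraries. From 7 to 10 dai the 19 became 30 with DESeq2 and 13 to 29 without single libraries. For apn1 against wild type with MAFF303099, 0 became 1 with DESeq2 size factors, with upper-quartile scaling and without the filter, 2 with limma-voom, 6 with DESeq2 and 0 to 2 without single libraries; with TONO, DESeq2 gave 1. For strain in wild type, 2 became 0 with total counts and without the 5 or the 7 dai libraries, 21 with DESeq2, and 0 to 5 without single libraries; in apn1 DESeq2 gave 2. The interaction gave 6 with DESeq2, 1 without the 10 dai libraries and 0 to 2 without single libraries. A limit of 500 CPM gave 212 members (23.8% of counts in the wild type root and 18.2% as the mean over nodules; 70 kept, 25 lost), and one of 2000 CPM gave 20 (7.27% and 4.94%; 12 kept, 3 lost). Members chosen on total counts held 15.5% and 11.9%, on DESeq2 size factors 15.3% and 11.7%, and in both roots 12.5% and 9.23%. A 1.5-fold bound gave 17 kept and 19 lost, and a 3-fold bound 48 and 6; without wild type with MAFF303099 at 7 dai 1 member was gained. Of the gene models named for a contrast, none changed direction in that contrast in the alternatives run. The causes of these moves were not tested. With 1 library per condition, no difference between single libraries has a measure of error beyond counting.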

Other observations

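The 3 members of chr4.LjT13G24 have neighbours with like values that were too low in the roots to be members, a pattern noticed in the data and not tested. chr4.LjT13G24.110.r2.a had 272 CPM in the apn1 root and 1276 to 3181 CPM in apn1 nodules, and in wild type nodules 876 to 1543 CPM with MAFF303099 and 2037 to 3123 CPM with TONO. chr4.LjT13G24.190.r2.a had 281 CPM in the apn1 root and 807 to 2330 CPM in apn1 nodules; in wild type nodules it had 607 to 1094 CPM with MAFF303099 and 1715 to 2293 CPM with TONO. chr4.LjT13G24.160.r2.a had 393 to 742 CPM in wild type nodules with MAFF303099 and 1641 to 1935 CPM with TONO, and in apn1 692 to 1294 CPM with MAFF303099 and 985 to 1337 CPM with TONO. For these 3, the strains did not overlap in wild type and did so in apn1. How many of all gene models had this pattern was not counted. The member chr4.LjT13G24.120.r2.a did not have it: its strains overlapped in wild type, at 1579 to 3050 CPM with MAFF303099 and 2607 to 4655 CPM with TONO. These ranges pool the days. Day by day it was higher with TONO in wild type, at 4655, 2607 and 2906 CPM against 3050, 1649 and 1579 CPM. DESeq2 called that strain difference (log2 difference 0.74, DESeq2 adjusted p = 0.00492) and edgeR did not. Not all neighbours were alike: chr4.LjT13G24.200.r2.a had 952 and 715 CPM in the wild type and apn1 roots and 446 to 1525 CPM in nodules. Its strains overlapped in wild type, at 446 to 825 CPM with MAFF303099 and 792 to 1384 CPM with TONO. Yet on each day it too was higher with TONO in wild type, at 1384, 915 and 792 CPM against 825, 592 and 446 CPM.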
